A study of Mus musculus with 5 samples.

Results

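The chemokine ligands with a CXC or CX3C cysteine motif are described here in the brains of glioma-bearing mice. They are the 9 genes Cxcl1, Cxcl2, Cxcl9, Cxcl10, Cxcl12, Cxcl13, Cxcl14, Cxcl16 and Cx3cl1, chosen as a list of ligand genes and matched by mouse symbol to the 55573 genes counted in each library. All 9 were found, and 8 had enough reads to be tested. GL261 is a mouse glioma cell line. GL261 cells carrying luciferase and mKate2 were injected into the right caudate nucleus-putamen of C57BL/6 females aged 7 to 8 weeks, so every library, controls included, comes from a tumor-bearing brain. The UMBO group received ultrasound-mediated blood-brain barrier opening, which is low-intensity pulsed ultrasound applied after intravenous microbubbles, and the vehicle group received inVivoPure pH 6.5 Dilution Buffer, on days 21 and 24. The right hemisphere was taken 24 h after the last session. Bulk RNA libraries of 3 vehicle mice and 2 UMBO mice were analysed. The methods of the study describe more mice than these, and any other was not analysed here. Whether vehicle mice were also given microbubbles, and UMBO mice the buffer, is not clear from the sources used here, so these cannot be told apart from the ultrasound.

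Chemokines are small secreted proteins that guide leukocytes along gradients through receptors coupled to G proteins. Cxcl1 and Cxcl2 act on Cxcr2 of neutrophils. Cxcl9 and Cxcl10 are induced by interferon and act on Cxcr3 of activated T cells, and Cxcl13 acts on Cxcr5 of B cells. Cxcl16 and Cx3cl1 are made as transmembrane proteins that can be shed from the cell surface, and act on Cxcr6 and on Cx3cr1 of microglia and monocytes. Cxcl12 acts on Cxcr4 and is bound by the scavenger receptor Ackr3. In the brain Cx3cl1 is made mainly by neurons, Cxcl12 largely by vessels and meninges, and Cxcl14 by some interneurons.

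The 250 bases before the RefSeq start site (GRCm38.p6, the build the counts were made on) were read for 8 of the 9 ligands and searched on both strands for the kappa-B consensus motif of NF-kappa-B, the interferon-stimulated response element core (GAAA, any 2 bases, GAAA) and the interferon gamma activated site TTCNNNGAA. These motifs were in 3.9%, 2.98% and 7.02% of all 32851 promoters of that length. The windows of the pair of neutrophil attractants, of the 2 ligands of Cxcr3, of Cxcl14 and of Cx3cl1 are shown because these 6 include every ligand window with a match, and set Cxcl10 beside Cxcl9 and beside Cx3cl1, the most abundant ligand. They are given 5′ to 3′ on the strand of the gene, with motif matches in capitals. They lie at chr5:90890995-90891244 (forward strand), chr5:90903649-90903898 (forward strand), chr5:92328080-92328329 (reverse strand), chr5:92348890-92349139 (reverse strand), chr13:56296552-56296801 (reverse strand) and chr8:94771930-94772179 (forward strand).
Cxcl1: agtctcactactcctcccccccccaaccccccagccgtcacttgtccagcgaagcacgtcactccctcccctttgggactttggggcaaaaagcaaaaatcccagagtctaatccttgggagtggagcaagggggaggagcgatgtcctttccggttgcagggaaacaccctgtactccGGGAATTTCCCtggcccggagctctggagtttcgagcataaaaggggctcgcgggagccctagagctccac
Cxcl2: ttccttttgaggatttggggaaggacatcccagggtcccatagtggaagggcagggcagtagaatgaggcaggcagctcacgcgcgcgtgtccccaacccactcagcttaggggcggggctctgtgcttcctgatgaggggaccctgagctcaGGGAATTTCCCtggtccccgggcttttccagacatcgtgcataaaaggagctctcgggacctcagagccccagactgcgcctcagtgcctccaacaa
Cxcl9: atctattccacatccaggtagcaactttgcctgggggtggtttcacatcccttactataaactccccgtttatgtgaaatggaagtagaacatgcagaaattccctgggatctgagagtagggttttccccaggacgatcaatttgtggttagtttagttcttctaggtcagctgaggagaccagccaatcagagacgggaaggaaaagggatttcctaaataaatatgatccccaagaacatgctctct
Cxcl10: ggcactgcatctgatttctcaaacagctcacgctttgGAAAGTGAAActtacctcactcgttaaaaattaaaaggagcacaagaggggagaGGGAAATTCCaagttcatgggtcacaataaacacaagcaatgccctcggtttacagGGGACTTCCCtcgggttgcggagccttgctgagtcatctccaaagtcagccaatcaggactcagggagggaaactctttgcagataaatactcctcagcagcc
Cxcl14: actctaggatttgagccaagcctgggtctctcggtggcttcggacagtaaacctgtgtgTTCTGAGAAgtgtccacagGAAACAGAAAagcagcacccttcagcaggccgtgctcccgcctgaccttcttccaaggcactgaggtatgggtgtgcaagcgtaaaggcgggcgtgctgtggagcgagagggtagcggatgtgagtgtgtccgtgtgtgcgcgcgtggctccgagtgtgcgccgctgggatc
Cx3cl1: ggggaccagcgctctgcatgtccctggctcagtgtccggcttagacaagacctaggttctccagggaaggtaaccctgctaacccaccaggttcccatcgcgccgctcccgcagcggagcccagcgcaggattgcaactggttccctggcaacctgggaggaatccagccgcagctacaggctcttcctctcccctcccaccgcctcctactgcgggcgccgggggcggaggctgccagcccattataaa
Cxcl1 and Cxcl2 each held the same 11-base run, in which a kappa-B match on one strand overlaps one on the other, ending 61 bases before the start in Cxcl1 and 87 bases before it in Cxcl2. Cxcl10 held 2 kappa-B matches and 1 response element core, none of which overlap. Cxcl14 held 1 response element core and 1 activated site. None of these motifs was in the windows of Cxcl9, Cxcl12, Cxcl13 and Cx3cl1. The window of Cxcl16 was not analysed here. Matches of letters are a description and do not show that a factor bound there.

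Total counts lay between 59736771 and 86164159 reads per library. By the quasi-likelihood test of edgeR with Benjamini-Hochberg adjustment, 0 of 23592 genes passed an adjusted p of 0.05, 1738 had an unadjusted p under 0.05, and the DESeq2 Wald test called 42. UMBO replicate 2 stood apart from the other libraries. Over all genes tested it was the highest or the lowest of the 5 libraries in 80.2%, and the fitted difference of each ligand is therefore given with and without it. Brain markers were present in every library, and the sum of 6 neuron markers was 8139.6, 5164 and 5583 CPM in the 3 vehicle libraries, in replicate order, against 5492 and 2433 CPM in the 2 UMBO libraries. The sum of 8 monocyte and macrophage markers was 33.0, 109 and 60.4 CPM in the 3 vehicle libraries, in replicate order, against 100.5 and 393 CPM in the 2 UMBO libraries. CPM here are read counts scaled to library size with TMM factors. In bulk RNA fewer cells of a type and less RNA per cell cannot be told apart. Each library came from a different mouse.

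No ligand passed the adjusted threshold between UMBO and vehicle, 0 of 8 tested by edgeR and 0 by DESeq2, where 0% and 0.178% of all genes passed. At an unadjusted p under 0.05 in edgeR there was 1 ligand, Cxcl1, against a background of 7.37% of all genes, and in DESeq2 there were 3 (Cxcl1, Cxcl13 and Cxcl16) against 11.2%. The fitted log2 fold change was above 0 for 5 of the 8 and below 0 for 3, beside 50.9% above 0 over all genes. The median log2 fold change of the 8 was 1.33, and 0.012 over all genes. Without UMBO replicate 2 the median of the 8 was 0.048, and without UMBO replicate 1 it was 2.05. In all 8 UMBO replicate 2 was the highest or the lowest library, which is a share near the background of 80.2%. It was the highest in 5 (40.4% of all genes) and the lowest in 3 (39.8%). Vehicle replicate 2 lay above UMBO replicate 1 in 6 of the 8, beside 50.1% of all genes. With UMBO replicate 2 as the only UMBO library, Cxcl1, Cxcl13 and Cx3cl1 passed the adjusted threshold in edgeR, where 18.3% of all genes passed. Cxcl2 passed it too, but it entered that fit through UMBO replicate 2 alone, the library in which it is high, so it had to differ. This fit assumes that the lone library varies like the vehicle libraries.

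**Figure D1:**
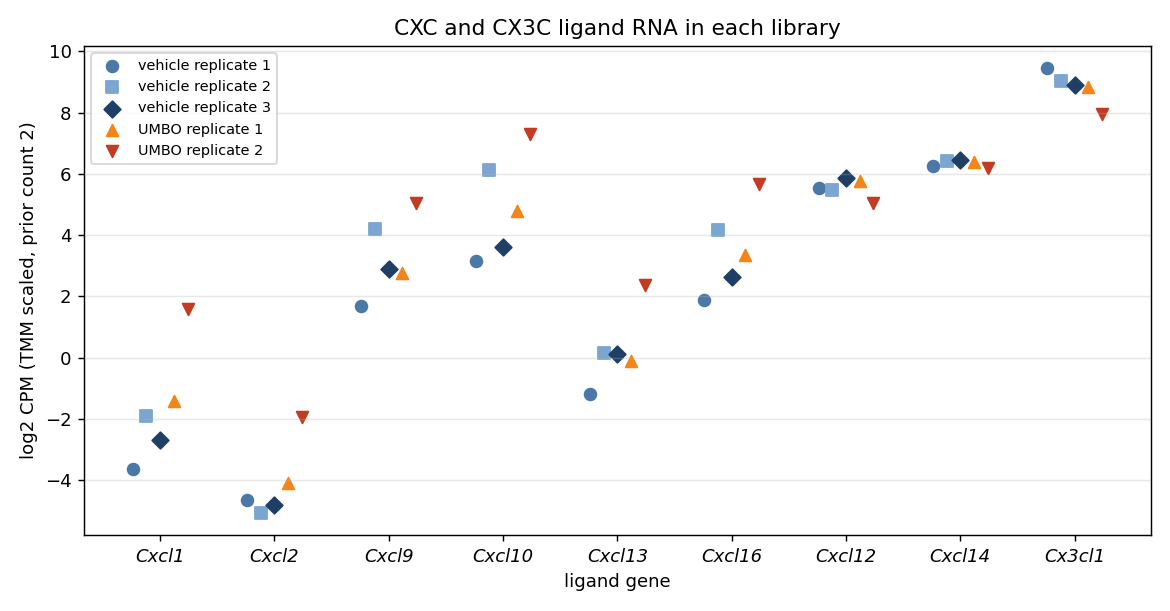
Level of each ligand gene (log2 CPM, TMM scaled, prior count 2, vertical axis) in each of the 5 libraries, with 1 point per library, blue for vehicle and orange or red for UMBO. UMBO replicate 2 is the highest library for Cxcl1, Cxcl2, Cxcl9, Cxcl10, Cxcl13 and Cxcl16 and the lowest for Cxcl12, Cxcl14 and Cx3cl1, and vehicle replicate 2 lies above UMBO replicate 1 for Cxcl9, Cxcl10, Cxcl13, Cxcl16, Cxcl14 and Cx3cl1.

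Cxcl1 and Cxcl2, the neutrophil attractants, were the rarest ligands and were higher in each UMBO library than in any vehicle library. This order was seen in 11.5% of all genes tested. Cxcl1 (chromosome 5 of GRCm38, 90891241 to 90893115) had read counts of 4, 16 and 11 in the 3 vehicle libraries, in replicate order, against 30 and 196 in the 2 UMBO libraries. The exact 95% Poisson interval was 9.15 to 26.0 reads for vehicle replicate 2 and 20.2 to 42.8 reads for UMBO replicate 1, so these neighbouring libraries overlapped within counting error. UMBO replicate 2 lay far above both. Its level was 0.0535, 0.237 and 0.130 CPM in the 3 vehicle libraries, in replicate order, against 0.351 and 2.99 CPM in the 2 UMBO libraries. Its log2 fold change was 3.57 (SE 0.995) at an adjusted p of 0.497 in edgeR and a DESeq2 adjusted p of 0.0826. Without UMBO replicate 2 the log2 fold change was 1.33, and with UMBO replicate 2 as the only UMBO library it was 4.39. Cxcl2 (chromosome 5, 90903871 to 90905938) had read counts of 1, 0 and 1 in the 3 vehicle libraries, in replicate order, against 3 and 15 in the 2 UMBO libraries, too few to be tested. In sum there were 2 reads with vehicle and 18 with UMBO, a ratio of rates of 13.5 with an exact 95% interval of 3.24 to 120.2 that covers counting error only. UMBO replicate 2 gave 15 of these 18 reads, and without it the ratio was 3.98 with an interval of 0.456 to 47.7, an alternative chosen after the data were seen. Of the words of 50 bases in the longest Cxcl2 transcript 5.35% also occur in Cxcl3, so a part of its reads could be split between these paralogs, and none of those of Cxcl1 occur in another gene. Cxcl3 itself had 3, 3 and 6 reads with vehicle and 3 and 11 with UMBO. The summed level of 7 neutrophil markers was 0.736 to 2.02 CPM with vehicle and 1.15 to 5.71 CPM with UMBO, at its highest in UMBO replicate 2, and the defining marker Ly6g was at 0 in at least 1 library. The part of neutrophils in these values was not tested.

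Cxcl9 and Cxcl10, the interferon-inducible ligands of Cxcr3, differed widely between mice of the same group, and for both the groups overlapped. Cxcl9 (chromosome 5, 92321347 to 92328079, reverse strand) was at 3.22, 18.5 and 7.48 CPM in the 3 vehicle libraries, in replicate order, against 6.79 and 32.8 CPM in the 2 UMBO libraries. Vehicle replicate 2 lay above UMBO replicate 1, and the groups overlapped. The group means were 9.74 ± 7.89 CPM (SD, n = 3) for vehicle against 19.8 ± 18.4 CPM (SD, n = 2) for UMBO, a log2 fold change of 1.02 (SE 0.869) at an adjusted p of 0.551 in edgeR. Cxcl10 (chromosome 5, 92346638 to 92348889, reverse strand) was at 8.89, 69.4 and 12.2 CPM in the 3 vehicle libraries, in replicate order, against 27.6 and 159 CPM in the 2 UMBO libraries. The vehicle libraries alone spanned 7.81-fold, and all 5 libraries together 17.9-fold. UMBO replicate 1 was at 0.915-fold of the vehicle mean and UMBO replicate 2 at 5.26-fold. The log2 fold change of Cxcl10 was 1.63 (SE 1.07) at an adjusted p of 0.501 in edgeR. Without UMBO replicate 2 both turned to the other direction, at -0.52 for Cxcl9 and -0.13 for Cxcl10. Without vehicle replicate 2 they were 1.92 and 3.18. Cxcl10 shares 133 exonic bases with Art3 on the opposite strand, and whether counting used strand is not given in the sources used here, so its counts are uncertain to that extent. Art3 was at 3.22 to 9.22 CPM over the libraries.

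Within a library the balance of these ligands can be read without any scaling between libraries. Cxcl10 had 2.76, 3.75 and 1.64 reads per Cxcl9 read in the 3 vehicle libraries, in replicate order, against 4.07 and 4.84 reads per Cxcl9 read in the 2 UMBO libraries. Each UMBO library exceeded the 3 vehicle libraries in this ratio, although vehicle replicate 2, at 3.75, was close to UMBO replicate 1, at 4.07. For each read of Cxcl11, the third ligand of Cxcr3, there were 14.2, 14.9 and 17.6 Cxcl9 reads in the 3 vehicle libraries, in replicate order, against 13.5 and 10.5 Cxcl9 reads in the 2 UMBO libraries. No test was run on these ratios. Cxcr3 itself, the receptor on activated T cells, was at 0.201, 0.786 and 0.437 CPM in the 3 vehicle libraries, in replicate order, against 0.246 and 1.16 CPM in the 2 UMBO libraries. The 7 T cell markers summed to 19.8 to 33.1 CPM with vehicle and 12.6 to 45.9 CPM with UMBO, and UMBO replicate 1 was the lowest library for them while vehicle replicate 2 was the second highest. Of these 7 markers 6 were highest in UMBO replicate 2, beside 40.4% of all genes tested. The part of T cells in the levels of Cxcl9 and Cxcl10 was not tested.

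Cxcl13, the B cell attractant, and Cxcl16, the transmembrane ligand of Cxcr6, were highest in UMBO replicate 2, with UMBO replicate 1 inside the range of the vehicle libraries. Cxcl13 (chromosome 5, 95956951 to 95961068) was at 0.415, 1.08 and 1.05 CPM in the 3 vehicle libraries, in replicate order, against 0.901 and 5.15 CPM in the 2 UMBO libraries. Vehicle replicate 1 was the lowest library. The log2 fold change was 1.83 (SE 0.781) at an adjusted p of 0.497 in edgeR, and it was 0.083 without UMBO replicate 2. Of the 5 B cell markers 4 were also highest in UMBO replicate 2, beside 40.4% of all genes tested. The median log2 fold change of the 5 was 0.84, and -0.24 without that library. Their sum was 21.9 to 43.2 CPM with vehicle and 26.8 to 30.8 CPM with UMBO and overlapped between the groups. The part of B cells in the level of Cxcl13 was not tested. Cxcl16 (chromosome 11, 70453983 to 70459984, reverse strand) was at 3.62, 18.1 and 6.21 CPM in the 3 vehicle libraries, in replicate order, against 10.2 and 50.8 CPM in the 2 UMBO libraries. Vehicle replicate 2 again lay above UMBO replicate 1. The log2 fold change was 1.72 (SE 0.861) at an adjusted p of 0.497 in edgeR, and 0.13 without UMBO replicate 2. Cxcl16 shares 552 exonic bases with Zmynd15 on the opposite strand, which was at 0.829 to 4.72 CPM. The 5 libraries stood in the same order for Cxcl16 and for the summed monocyte and macrophage markers. This order was not particular to Cxcl16, as Cxcl10 and Cxcl11 had it too. Of these 8 markers 7 were highest in UMBO replicate 2 and 1 was lowest there, beside 40.4% and 39.8% of all genes tested. Per 1000 reads of one of these markers, Lyz2, the lysozyme of myeloid cells, there were 265, 278 and 215 Cxcl16 reads in the 3 vehicle libraries, in replicate order, against 169 and 173 Cxcl16 reads in the 2 UMBO libraries. In this ratio each UMBO library was under the 3 vehicle libraries, but relative to the sum of all 8 markers the groups overlapped. The separation is thus one for Lyz2 only, and no test was run on it. The part of macrophages in the level of Cxcl16 was not tested.

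**Figure D2:**
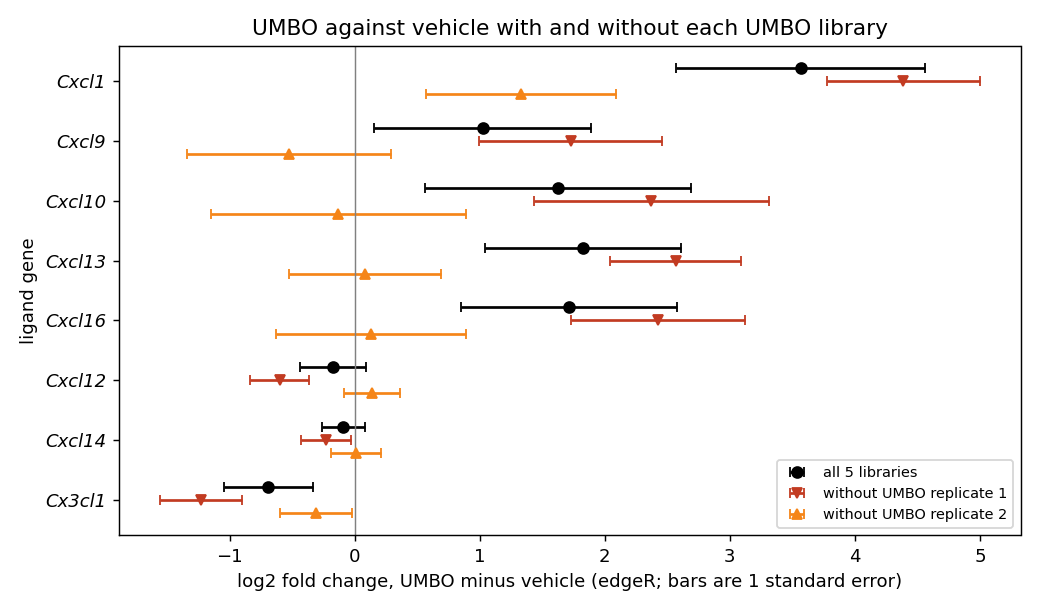
Log2 fold change of UMBO minus vehicle from edgeR (horizontal axis, bars of 1 standard error) for the 8 ligands tested, with all 5 libraries (black), without UMBO replicate 1 (red) and without UMBO replicate 2 (orange). Without UMBO replicate 2 the values of Cxcl9, Cxcl10, Cxcl13, Cxcl16, Cxcl12 and Cxcl14 lie within 1 standard error of 0, and Cxcl1 stays at 1.33 and Cx3cl1 at -0.31.

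Cxcl12 and Cxcl14, the ligands of the resting brain, were the steadiest of the group. Cxcl12 (chromosome 6, 117168535 to 117181367) was at 46.1, 44.0 and 58.8 CPM in the 3 vehicle libraries, in replicate order, against 54.6 and 33.4 CPM in the 2 UMBO libraries. The groups overlapped, with a log2 fold change of -0.17 (SE 0.265) at an adjusted p of 0.726 in edgeR. It was 0.14 without UMBO replicate 2 and -0.60 without UMBO replicate 1. Cxcl14 (chromosome 13, 56288643 to 56296551, reverse strand) was at 76.8, 86.4 and 88.6 CPM in the 3 vehicle libraries, in replicate order, against 84.6 and 73.1 CPM in the 2 UMBO libraries. All 5 libraries lay within 1.21-fold of each other. Its log2 fold change was -0.091 (SE 0.173) at an adjusted p of 0.783 in edgeR. It was 0.012 without UMBO replicate 2, and turned to 0.016 under scaling by library size alone, which moved the median of all genes from 0.012 to 0.13. The sum of 6 interneuron markers was 364 to 385 CPM with vehicle and 359 to 393 CPM with UMBO, but its members did not go one way, 3 being fitted higher and 3 lower. The 6 endothelial markers summed to 149 to 201 CPM with vehicle and 241 to 245 CPM with UMBO and the 6 markers of meninges and fibroblasts to 69.2 to 104 CPM with vehicle and 156 to 166 CPM with UMBO. For both sums each UMBO library exceeded the 3 vehicle libraries, an order that Cxcl12 did not share. In each list 4 of the 6 members showed this order singly, beside 11.5% of all genes tested. Among the markers of meninges and fibroblasts 1 showed the reverse order, which was seen in 11.4% of all genes tested.

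Cx3cl1, the neuronal ligand of the microglial receptor Cx3cr1, was the most abundant ligand and was lower in each UMBO library than in any vehicle library, an order seen in 11.4% of all genes tested. Cx3cl1 (chromosome 8, 94772009 to 94782427) was at 701, 527 and 477 CPM in the 3 vehicle libraries, in replicate order, against 458 and 247 CPM in the 2 UMBO libraries. UMBO replicate 1 lay just below vehicle replicate 3, and UMBO replicate 2 was far lower. The group means were 568 ± 118 CPM (SD, n = 3) for vehicle against 352 ± 149 CPM (SD, n = 2) for UMBO, a log2 fold change of -0.69 (SE 0.354) at an adjusted p of 0.497 in edgeR. It was -0.31 without UMBO replicate 2, -1.23 without UMBO replicate 1 and -0.51 without vehicle replicate 1. The neuron markers were lowest in the same library. Relative to 1000 reads of the 6 neuron markers there were 86.1, 102 and 85.4 Cx3cl1 reads in the 3 vehicle libraries, in replicate order, against 83.4 and 102 Cx3cl1 reads in the 2 UMBO libraries. On this scale the groups overlapped and their means were 91.2 ± 9.40 (SD, n = 3) for vehicle against 92.5 ± 12.8 (SD, n = 2) for UMBO.

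**Figure D3:**
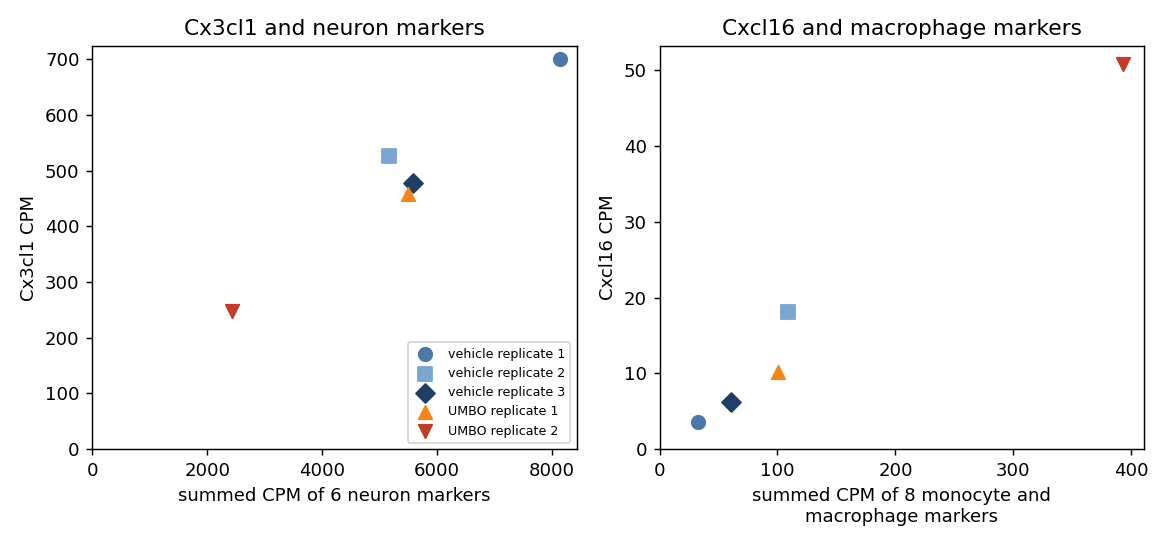
Left, Cx3cl1 (CPM) against the summed CPM of 6 neuron markers, and right, Cxcl16 (CPM) against the summed CPM of 8 monocyte and macrophage markers, with 1 point per library. UMBO replicate 2 has the least Cx3cl1 and neuron marker RNA and the most Cxcl16 and macrophage marker RNA, and the other UMBO library lies among the vehicle libraries on the marker axes.

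The ligands were compared with each other as CPM per kilobase of exon. In the vehicle libraries Cx3cl1 was first, at 145 ± 29.9 CPM per kb (SD, n = 3), and Cxcl14 second, at 46.0 ± 3.44 CPM per kb. Below them Cxcl10 was at 13.4 ± 15.1, Cxcl12 at 6.07 ± 0.975, Cxcl9 at 3.23 ± 2.62 and Cxcl16 at 3.08 ± 2.55 CPM per kb. Cxcl10 was above Cxcl9 and Cxcl16 in each of the 3 vehicle libraries. The place of Cxcl12 among them, and the order of Cxcl9 and Cxcl16, changed between these libraries. Cxcl13 at 0.739 ± 0.328, Cxcl1 at 0.0748 ± 0.0493 and Cxcl2 at 0.00406 ± 0.00354 CPM per kb came last. Cx3cl1 was first in the 3 vehicle libraries and in UMBO replicate 1, and Cxcl10 was first in UMBO replicate 2. The exonic length used for Cxcl12, 8176 bases, covers all its annotated isoforms and so sets its level low.

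The sum over the 9 ligands was 233, 231 and 188 CPM per kb in the 3 vehicle libraries, in replicate order, against 188 and 211 CPM per kb in the 2 UMBO libraries, with overlapping groups. Shares of this sum give its make-up in each library, on which no test was run. Cx3cl1 took 76.7, 58.1 and 64.5 percent in the 3 vehicle libraries, in replicate order, against 61.9 and 29.7 percent in the 2 UMBO libraries. Cxcl10 took 1.70, 13.4 and 2.89 percent in the 3 vehicle libraries, in replicate order, against 6.51 and 33.4 percent in the 2 UMBO libraries. UMBO replicate 2 was the only library in which Cxcl10 took a larger share than Cx3cl1, and vehicle replicate 2 had the next largest share of Cxcl10.

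**Figure D4:**
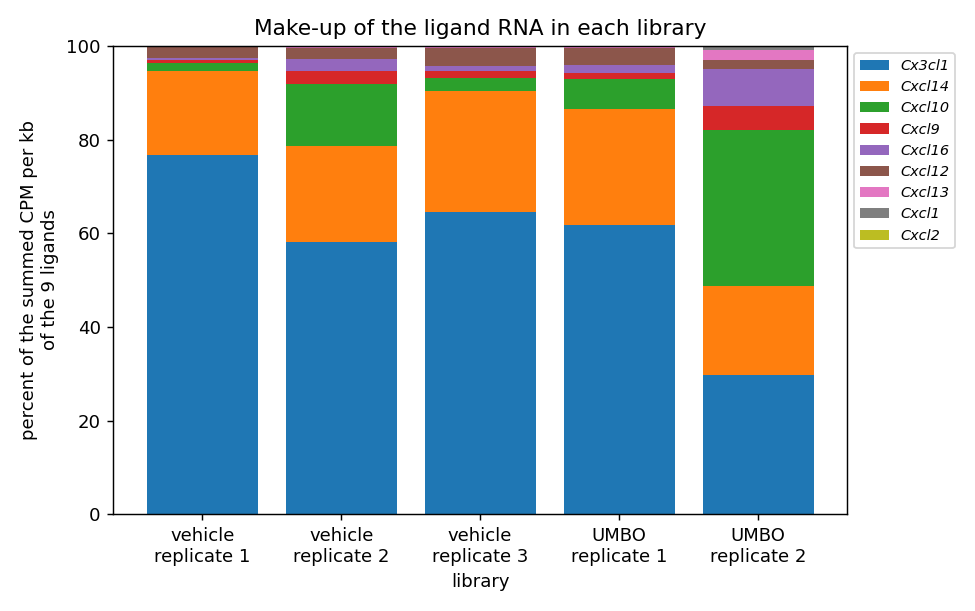
Share of each ligand (percent of the summed CPM per kilobase of exon of the 9 ligands, vertical axis) in each of the 5 libraries. Cx3cl1 holds between 58.1 and 76.7 percent in the vehicle libraries and UMBO replicate 1, and 29.7 percent in UMBO replicate 2, where Cxcl10 holds 33.4 percent.

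Among the receptors of these ligands the microglial receptor Cx3cr1 gave the smallest unadjusted p in edgeR. Of the 9 receptor genes 7 were tested, and 0 of them passed the adjusted threshold. An unadjusted p under 0.05 was reached by 3, Cx3cr1, Cxcr4 and Cxcr5, against a background of 7.37%. All 3 were higher with UMBO, but Cxcr5 passed the filter on low counts through the UMBO libraries alone, so it had to differ. Cx3cr1 was at 60.2, 75.4 and 67.3 CPM in the 3 vehicle libraries, in replicate order, against 99.6 and 124 CPM in the 2 UMBO libraries. Each UMBO library was above every vehicle library, an order seen in 11.5% of all genes tested. The log2 fold change of Cx3cr1 was 0.73 (SE 0.192) at an adjusted p of 0.497 in edgeR. It was 0.56 without UMBO replicate 2. The summed level of 6 microglia markers was also higher in each UMBO library, at 249 to 365 CPM with vehicle and 484 to 589.7 CPM with UMBO, while 4 of the 6 were fitted higher and 2 lower. The part of microglia in this difference was not tested. For each Cx3cr1 read there were 11.6, 6.99 and 7.09 Cx3cl1 reads in the 3 vehicle libraries, in replicate order, against 4.60 and 1.99 Cx3cl1 reads in the 2 UMBO libraries.

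Cxcr4, the receptor of Cxcl12 on leukocytes and many tumor cells, was at 2.63, 5.19 and 3.33 CPM in the 3 vehicle libraries, in replicate order, against 5.79 and 16.9 CPM in the 2 UMBO libraries. Its log2 fold change was 1.61 (SE 0.518) at an adjusted p of 0.497 in edgeR, and 0.64 without UMBO replicate 2. For each Cxcr4 read there were 17.5, 8.48 and 17.6 Cxcl12 reads in the 3 vehicle libraries, in replicate order, against 9.42 and 1.97 Cxcl12 reads in the 2 UMBO libraries, and the groups overlapped in this ratio. The scavengers Ackr3 and Ackr1 were higher in each UMBO library than in any vehicle library by small amounts. This order was seen in 11.5% of all genes tested. The log2 fold change was 0.31 (SE 0.225) for Ackr3 and 0.26 (SE 0.178) for Ackr1, at adjusted p of 0.516 and 0.505 in edgeR. Cxcr6, the receptor of Cxcl16, was at 0.415, 1.35 and 1.28 CPM in the 3 vehicle libraries, in replicate order, against 0.409 and 2.02 CPM in the 2 UMBO libraries. UMBO replicate 1 was the lowest library for it. Its log2 fold change of 0.25 (SE 0.791) turned to -1.31 without UMBO replicate 2 and to -0.12 without vehicle replicate 1. For each read of Cxcr6 there were 8.74, 13.4 and 4.87 Cxcl16 reads in the 3 vehicle libraries, in replicate order, against 24.9 and 25.2 Cxcl16 reads in the 2 UMBO libraries. Each UMBO library exceeded the 3 vehicle libraries in this ratio, on which no test was run. Cxcr6 reads were few, with 31 in vehicle replicate 1 and 35 in UMBO replicate 1. Taken singly, Cxcl16 and Cxcr6 each overlapped between the groups. Cxcr2, the neutrophil receptor of Cxcl1 and Cxcl2, had read counts of 1, 6 and 1 in the 3 vehicle libraries, in replicate order, against 7 and 29 in the 2 UMBO libraries, too few for a test with all 5 libraries. Cxcr1 had at most 1 read in any library.

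**Figure D5:**
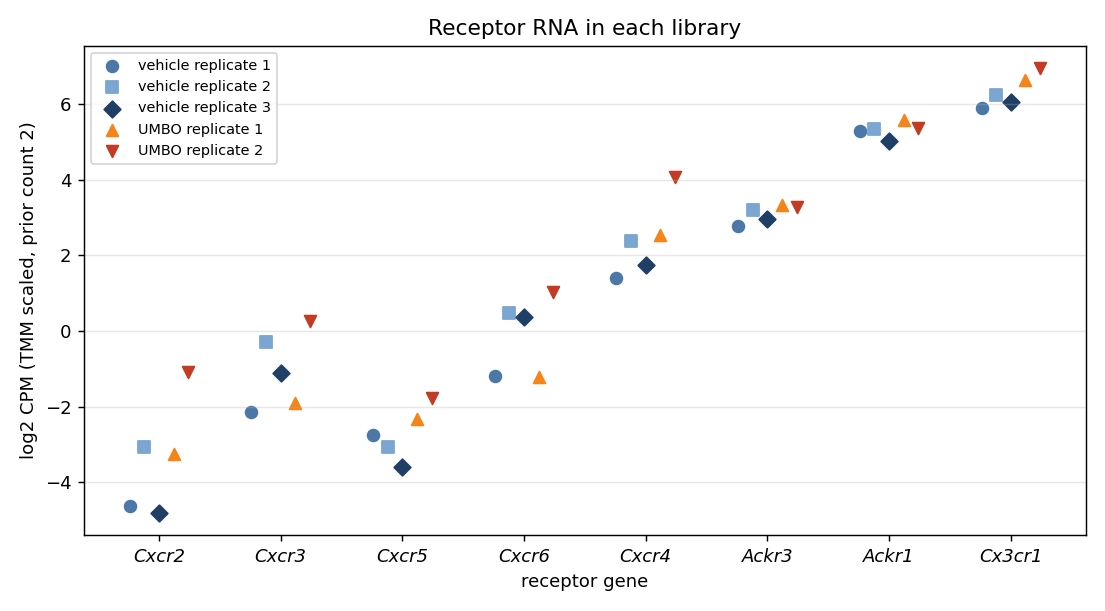
Level of 8 receptor genes (log2 CPM, TMM scaled, prior count 2, vertical axis) in each of the 5 libraries, with 1 point per library, blue for vehicle and orange or red for UMBO. Both UMBO libraries lie above the 3 vehicle libraries for Cxcr5, Cxcr4, Ackr3, Ackr1 and Cx3cr1, an order seen in 11.5% of all genes tested. Of these, Cxcr5 passed the filter on low counts through the UMBO libraries alone. UMBO replicate 1 lies within or below the vehicle libraries for Cxcr2, Cxcr3 and Cxcr6.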

How the data were processed

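Bulk RNA libraries of the right hemisphere of 3 vehicle and 2 UMBO mice were used. Per the submitters' processing notes, the authors mapped the reads with STAR 2.7.2a to GRCm38, and they deposited raw read counts per gene, without normalization. The annotation release and strand setting are not given in the sources used here. Symbols, positions and exonic lengths were taken from GENCODE M21, on the same build, and matched 55480 of 55573 genes; promoter sequences came from RefSeq (GRCm38.p6).

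Counts were scaled by TMM, filtered with filterByExpr (minimum count 10), and 23592 genes were fitted together in edgeR 4.0.16 under R 4.3.3 (quasi-likelihood F test, 2-sided), with Benjamini-Hochberg adjustment over all genes and a threshold of 0.05. Standard errors are the log2 fold change divided by the square root of the F statistic. DESeq2 1.42.0 was an alternative. Other alternatives were the scaling, the filter, the replicate block and each library left out. The fit was first tested on simulated data in which 200 genes were changed. Poisson intervals cover counting error only. Every ligand, receptor, further CXC ligand and protease was to be named, besides the gene nearest in pattern to each ligand above 1 CPM. The members and lists were chosen with earlier results of these data known.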

Additional observations from a re-analysis of the deposited data

How the results depend on the processing

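With all alternatives the number of genes past an adjusted p of 0.05 was 0, except for 42 with the DESeq2 Wald test, 2337 with the replicate block and, across the fits that each left out 1 library, 0 to 4543, the last without UMBO replicate 1. Of the ligands 0 passed, except for 5 with the replicate block (Cxcl1, Cxcl9, Cxcl10, Cxcl13 and Cxcl16) and 0 to 4 with 1 library left out, the 4 being Cxcl1, Cxcl2, Cxcl13 and Cx3cl1 without UMBO replicate 1, or 3 leaving out Cxcl2, which passed the filter through UMBO replicate 2 alone. Of the receptors 0 passed, except for 2 with the replicate block and 0 to 3 with 1 library left out, the 3 being Cxcr4, Cx3cr1 and Cxcr2 without UMBO replicate 1, or 2 leaving out Cxcr2, for the same reason. The fit without UMBO replicate 1 sets 1 library against 3, assumes that this library varies like the vehicle libraries, and called 18.3% of all genes. The median log2 fold change of the tested ligands ranged from 0.048 without UMBO replicate 2 to 2.05 without UMBO replicate 1. Across the same fits the sign of the log2 fold change turned for Cxcl9 (-0.52 to 1.92), Cxcl10 (-0.13 to 3.18), Cxcl12 (-0.60 to 0.14), Cxcl14 (-0.23 to 0.012), Cxcr3 (-0.94 to 1.27) and Cxcr6 (-1.31 to 0.96), each of them without UMBO replicate 2 and Cxcr6 also without vehicle replicate 1. With library size only, Cxcl14 was at 0.016. An unadjusted p under 0.05 was reached by 1738 genes, and by 4100 of 40435 tested when no gene was filtered out. The causes were not tested.

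The replicate block leaves 1 residual degree of freedom, and this fit called 2337 of 23592 genes, which is the background for its 5 ligands and 2 receptors. No label ties equal replicate numbers to 1 litter or day, and 2 numbers occur in both groups. Deviations of libraries with equal numbers correlated at 0.451 and 0.762, but deviations within a group of 2 are mirror images, so no pairing was taken from the numbers. With at most 2 reads in a library, no difference could be resolved at this depth for Cxcr1, Cxcl15 and Cxcl17.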

Other observations

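Of 7 further CXC ligands 4 were tested, and all 4 were fitted above 0 in log2 fold change (Cxcl5 1.11 (SE 0.473), Pf4 1.37 (SE 0.597), Cxcl11 1.52 (SE 0.952) and Ppbp 0.55 (SE 0.443)), but 0 had an unadjusted p under 0.05 in edgeR, where 7.37% of all genes did. The groups overlapped for each of them. Without UMBO replicate 2 the median log2 fold change of the 4 was 0.15, and with all libraries it was 1.24. Cxcl3, Cxcl15 and Cxcl17 were too rare to be tested, and Cxcl15 had 2 reads or fewer in each library. Of the proteases, Adam17, which sheds membrane proteins, was higher in both UMBO libraries than in any vehicle library. This order was seen in 11.5% of all genes tested. Its log2 fold change was 0.49 (SE 0.193) at an adjusted p of 0.497 in edgeR. Adam10, the constitutive sheddase of Cx3cl1 and Cxcl16, had a log2 fold change of -0.032 (SE 0.202), and Dpp4, which trims several CXC ligands, one of -0.33 (SE 0.298).

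The genes of the interferon gamma pathway had a median log2 fold change of 0.64 over 8 genes, 6 of them above 0 and 1 with an unadjusted p under 0.05 in edgeR, beside 50.9% and 7.37% of all genes. The median was -0.043 without UMBO replicate 2. Over 7 tested genes of the TNF, interleukin 1 and NF-kappa-B pathway the median was 1.10, with 7 above 0 and 2 with an unadjusted p under 0.05 beside the same shares, and it was 0.41 without UMBO replicate 2. All genes tested had a median of 0.012. The 8 proliferation markers summed to 27.1 to 90.1 CPM with vehicle and 93.1 to 400.0 CPM with UMBO. Vehicle replicate 2, at 90.1 CPM, was close to UMBO replicate 1, at 93.1 CPM. Singly, 5 of the 8 were higher in each UMBO library than in any vehicle library, beside 11.5% of all genes tested. All 8 had an unadjusted p under 0.05 in edgeR, beside 7.37% of all genes, and 0 an adjusted p under 0.05. Their median log2 fold change came to 2.23, or 0.91 without UMBO replicate 2.

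For 7 ligands with a mean of at least 1 CPM, the gene whose log2 CPM over the 5 libraries, centred on its own mean, lay nearest was sought. Gene models named Gm or Rik and genes of the mitochondrial genome were left out. Among the other tested genes with a symbol and at least 0.8 of the ligand's SD, the nearest gene was Gbp8 for Cxcl9, at a root mean square difference of 0.0984. It was Psmb9 for Cxcl10 at 0.133, Stx11 for Cxcl16 at 0.0871 and Dnajc22 for Cxcl13 at 0.167. It was Smpd3 for Cx3cl1 at 0.0176, Pdgfra for Cxcl12 at 0.0303 and Gap43 for Cxcl14 at 0.0243. With 5 libraries many genes lie close by, for example 633 genes within 0.2 of Cx3cl1 and 11 within 0.2 of Cxcl9. Among the ligands themselves Cxcl12 and Cxcl14 lay nearest to each other, at 0.206, followed by Cxcl10 and Cxcl16, at 0.326.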
